A study of Mus musculus with 15 samples.

Results

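The miR-181 family was followed through 15 mouse small RNA libraries. Its members are the 7 mature strands mmu-miR-181a-5p, mmu-miR-181b-5p, mmu-miR-181c-5p, mmu-miR-181d-5p, mmu-miR-181a-1-3p, mmu-miR-181a-2-3p and mmu-miR-181c-3p, chosen by name from 1558 mature names that had a read in any library; the species prefix mmu is left out from here on. All 7 had reads in all 15 libraries, and together they held 613812 of 29911481 reads. The series addresses how the arm of a hairpin that is kept as the mature miRNA can switch between tissues. Total RNA came from a commercial mouse panel, and the libraries were made with AQ-seq, a small RNA sequencing procedure with adapters whose ends are randomised to lower ligation bias. There is 1 library per tissue or stage. Brain, eye and spinal cord form the nervous class (n = 3), the 11-, 15- and 17-day embryos form the embryo class (n = 3), and heart, kidney, liver, lung, salivary gland, smooth muscle, spleen, stomach and testis form a class called other adult here (n = 9). The labels name no treatment and give no strain, sex or age of the animals, nor how many were pooled. The title of the 17-day embryo is followed, although its source field gives 15-day. No tissue has a second library, so a p-value here sets a difference against the scatter among unlike tissues or stages grouped in 1 class, part of which may be technical; scatter among animals was not measured.

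A miRNA hairpin yields a strand from each arm, 5p and 3p. Usually 1 strand is loaded into an Argonaute protein and pairs with target mRNAs through its seed, bases 2 to 8 from the 5′ end, while the other strand is mostly degraded. The miR-181 family is known from lymphocyte development, where mouse miR-181a tunes the sensitivity of the T cell receptor, and from brain and retina. Its hairpins lie in 3 clusters, and mature strands of identical sequence from different clusters share a name, so that only strands that differ between copies carry a locus number.

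The 4 5p strands are shown first because they share the seed, written in capitals, and differ outside it. They are from RefSeq (GRCm38.p6), 5′ to 3′.
miR-181a-5p: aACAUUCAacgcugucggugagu
miR-181b-5p: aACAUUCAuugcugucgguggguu
miR-181c-5p: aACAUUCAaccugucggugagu
miR-181d-5p: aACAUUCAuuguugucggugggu
Positions are counted from 1 at the 5′ end, and in each comparison the base of the strand named second stands before the position. miR-181b-5p differs from miR-181a-5p by A9U, C10U and A21G over the 23 bases they share in length, and miR-181d-5p differs from miR-181b-5p by C12U over 23 bases and lacks its last U. miR-181c-5p is miR-181a-5p without the G at position 11. Of 1679 mature mouse names in the RefSeq table, no name outside the family carries this seed.

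The 3p members are shown because they are what tells the copies apart, again with the seed in capitals.
miR-181a-1-3p: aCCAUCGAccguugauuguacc
miR-181a-2-3p: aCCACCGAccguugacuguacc
miR-181c-3p: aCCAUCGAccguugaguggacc
miR-181a-2-3p differs from miR-181a-1-3p by U5C and U16C, so that 1 of the 2 differences lies inside the seed. miR-181c-3p differs from miR-181a-1-3p by U16G and U19G and keeps its seed. With 2 substitutions between strands of 22 bases, reads of full length can be told apart, although no source used here states how the authors treated reads that match more than 1 locus. miR-181b-5p and miR-181d-5p are kept apart by a single substitution and the final base, and the division of reads between them is less certain.

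In GRCm38 with GENCODE M21 annotation, Mir181a-1 (chr1:137966455-137966541, plus strand) and Mir181b-1 (chr1:137966639-137966718, plus strand) are 97 bases apart in an exon of the lincRNA A430106G13Rik. Mir181a-2 (chr2:38852735-38852810, plus strand) and Mir181b-2 (chr2:38853830-38853918, plus strand) are 1019 bases apart in an intron of Nr6a1, a nuclear receptor gene on the opposite strand. Mir181c (chr8:84178873-84178961, minus strand) and Mir181d (chr8:84178716-84178787, minus strand) are 85 bases apart in an intron of Nanos3 on the same strand, a germ cell gene. miR-181a-5p and miR-181b-5p can come from chromosome 1 or chromosome 2, and their reads cannot be divided between the copies.

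Brain was the deepest library, with 3161463 reads, and testis the shallowest, with 148052; all others had at least 922137. The neuronal list of marker miRNAs (miR-124-3p, miR-9-5p, miR-128-3p) was highest in the nervous libraries. It summed to 113425 to 209515 counts per 1000000 reads (CPM) there, 39828 to 73808 in the embryos and 149 to 2654 in the other adult libraries. Eye was also highest of all 15 for the lens and pigment epithelium list (miR-204-5p, miR-184-3p). That list summed to 71034 CPM in eye, 3531 in brain and 3563 in spinal cord, and its part in the nervous values was not tested. The library labelled smooth muscle was highest of all 15 for the gut and kidney epithelium list (miR-192-5p, miR-194-5p, miR-215-5p), at 279409 CPM, and second for the smooth muscle list, at 154308 CPM against 264929 CPM in stomach. Leaving out smooth muscle and testis together changed the call of no member in any of the 3 comparisons of levels below.

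The family was highest in the nervous and embryo libraries and lowest in liver. It made up 2.79% of all miRNA reads in brain, 6.10% in eye and 3.44% in spinal cord, 4.48%, 2.83% and 2.57% in the 11-, 15- and 17-day embryos, and between 0.0959% and 0.996% in the other adult libraries. All 6 nervous and embryo libraries therefore lay above all 9 other adult ones on this scale. The class means were 4.11 ± 1.76% in nervous libraries (SD, n = 3), 3.29 ± 1.04% in embryos (SD, n = 3) and 0.630 ± 0.277% in other adult libraries (SD, n = 9). In bulk RNA such as this, fewer cells of a type and less RNA per cell cannot be told apart.

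Within the other adult class, lung (0.996%) and stomach (0.989%) led, followed by salivary gland (0.748%), spleen (0.664%), kidney (0.645%), smooth muscle (0.571%), heart (0.518%), testis (0.446%) and liver (0.0959%). Of the 14 neighbouring pairs in the order of all 15 libraries, 2 had overlapping exact Clopper-Pearson 95% intervals, lung with stomach (0.985 to 1.01% and 0.969 to 1.01%) and spleen with kidney (0.653 to 0.675% and 0.632 to 0.658%). These intervals cover counting error only. Eye exceeded liver by 63.6-fold. Spleen, in which the leukocyte marker list was the highest of all libraries at 261452 CPM, was at rank 10 of 15 for a family known from lymphocytes. miR-181a-5p alone was the fourth most abundant of all names in eye, the sixth in the 11-day embryo, and between ranks 9 and 10 in brain, spinal cord and the older embryos, while it stood at ranks 25 to 86 in the other adult libraries.

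**Figure D1:**
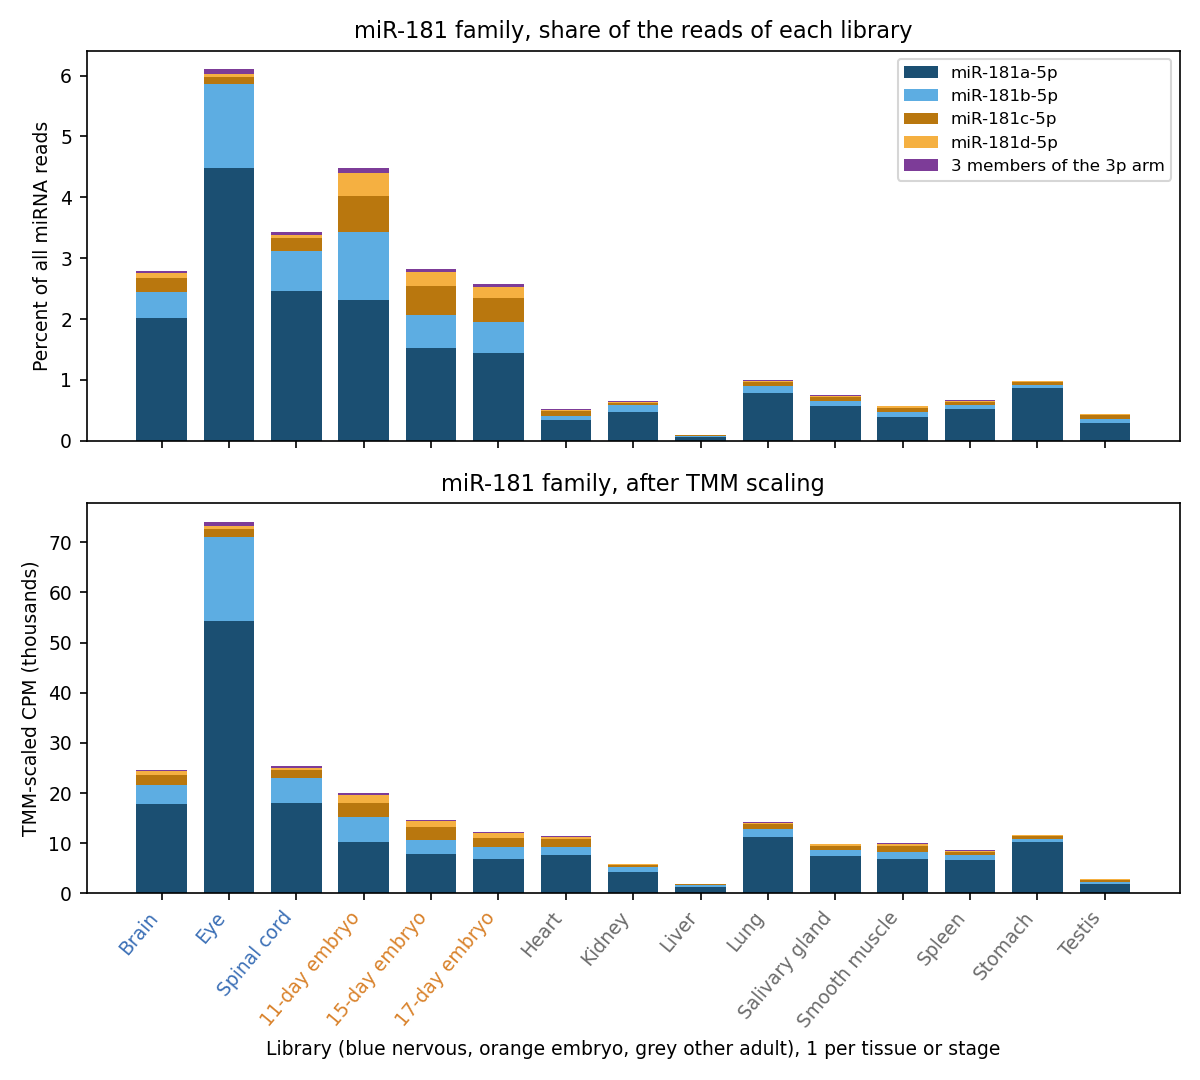
Family level in each library as percent of all miRNA reads (upper panel) and as TMM-scaled CPM in units of 1000 (lower panel), stacked by member; the 3 members of the 3p arm are summed. Eye is the tallest bar on both scales, and the embryo bars, at 2.57 to 4.48% of reads, come down relative to the others on the TMM scale.

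Scaling between libraries matters for the embryos. TMM, the edgeR scaling that assumes most names do not change, gave the embryos factors of 1.92 to 2.25, against 0.825 to 1.36 in the nervous and 0.449 to 1.77 in the other adult libraries. On the TMM scale the family stood at 24659 CPM in brain, 73994 in eye and 25376 in spinal cord. The 11-, 15- and 17-day embryos had 19988, 14732 and 12152 TMM CPM, and the other adult libraries ran from 1907 in liver over a median of 9920 to 14209 in lung. The nervous libraries thus stayed above all other adult ones, while lung exceeded the 17-day embryo. In total 11 of 15 libraries changed rank between the 2 scales.

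The make-up of the family also varied. miR-181a-5p was the most abundant member in all 15 libraries and held 67.2% of family reads over all of them, followed by miR-181b-5p with 19.0%, miR-181c-5p with 8.67% and miR-181d-5p with 3.73%. These shares pool reads, and deep libraries weigh more: miR-181b-5p exceeded miR-181c-5p in 13 of 15 libraries, the exceptions being heart (1884 against 1888 reads) and testis (91 against 92). The 3p members were minor, with 0.716% for miR-181a-1-3p, 0.302% for miR-181a-2-3p and 0.396% for miR-181c-3p. One read covers a whole mature strand, so these shares need no correction for length. In every library each 5p strand outnumbered each of the 3p members. The sum of the 3p members ranged from 0.417% of family reads in stomach to 2.70% in heart.

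In embryos the share of miR-181a-5p among the 4 5p strands was lower than in the other adult tissues. It was 52.8%, 54.98% and 57.2% in the 11-, 15- and 17-day embryos, against a lowest, median and highest of 67.0% (testis), 74.7% (kidney) and 87.3% (stomach) in the other adult libraries. All 3 embryos lay below all 9. The difference of class means was -19.8 percentage points (54.97 ± 2.21% in embryos, SD, n = 3, and 74.8 ± 6.7% in other adult libraries, SD, n = 9; two-sided exact permutation test, p = 0.00909, adjusted over 8 tests of shares 0.0364). That p is the smallest that 3 against 9 libraries can give. Nervous libraries had 73.0% in brain, 74.3% in eye and 72.4% in spinal cord, inside the range of the other adult libraries, and the difference of -1.55 points did not pass (exact permutation p = 0.755).

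The rest of the embryo 5p reads went to all 3 other members. miR-181c-5p and miR-181d-5p, from the chromosome 8 cluster, together held 21.9%, 25.9% and 22.9% of 5p reads in the 11-, 15- and 17-day embryos. They held 11.4% in brain, 2.85% in eye and 8.09% in spinal cord. In the other adult libraries they ranged from 6.41% in stomach over a median of 10.7% to 19.0% in testis, with heart next at 18.1%. Eye thus had the lowest share of the chromosome 8 strands and the 15-day embryo the highest. Levels were ordered otherwise. In unscaled CPM, eye had 1214 of miR-181c-5p and 504 of miR-181d-5p, above all other adult libraries. The 11-day embryo was highest, at 5895 and 3755, and liver lowest, at 107 and 20.2. Between the strands encoded on chromosomes 1 and 2, miR-181b-5p made up 17.6 to 23.5% of miR-181a-5p plus miR-181b-5p in the nervous libraries, 25.8 to 32.4% in the embryos and 6.72 to 19.0% in the other adult libraries. Stomach was lowest for this share of miR-181b-5p, and 87.3% of its family 5p reads were miR-181a-5p.

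Within the chromosome 8 pair, miR-181c-5p exceeded miR-181d-5p in all 15 libraries, but by less in embryos. Its share of the pair was 61.1%, 67.5% and 69.0% in the 11-, 15- and 17-day embryos and from 73.5% (smooth muscle) over 76.2% to 84.1% (liver) in the other adult libraries. All 3 embryos were below all 9. The means were 65.9 ± 4.2% (SD, n = 3) in embryos and 77.1 ± 3.3% (SD, n = 9) in other adult libraries, a difference of -11.2 points (two-sided exact permutation p = 0.00909, adjusted over 8 tests 0.0364). Nervous libraries had 75.3% in brain, 70.7% in eye and 78.3% in spinal cord, and their difference of -2.33 points did not pass (exact permutation p = 0.309). Of the nervous libraries, eye alone was below the other adult range. Both embryo differences lose the adjusted threshold when any 1 embryo library is left out, where the smallest exact permutation p for 2 against 9 libraries is 0.0364 and the adjusted p 0.145, although the differences stay between -20.9 and -18.2 points and between -12.8 and -8.83 points.

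**Figure D2:**
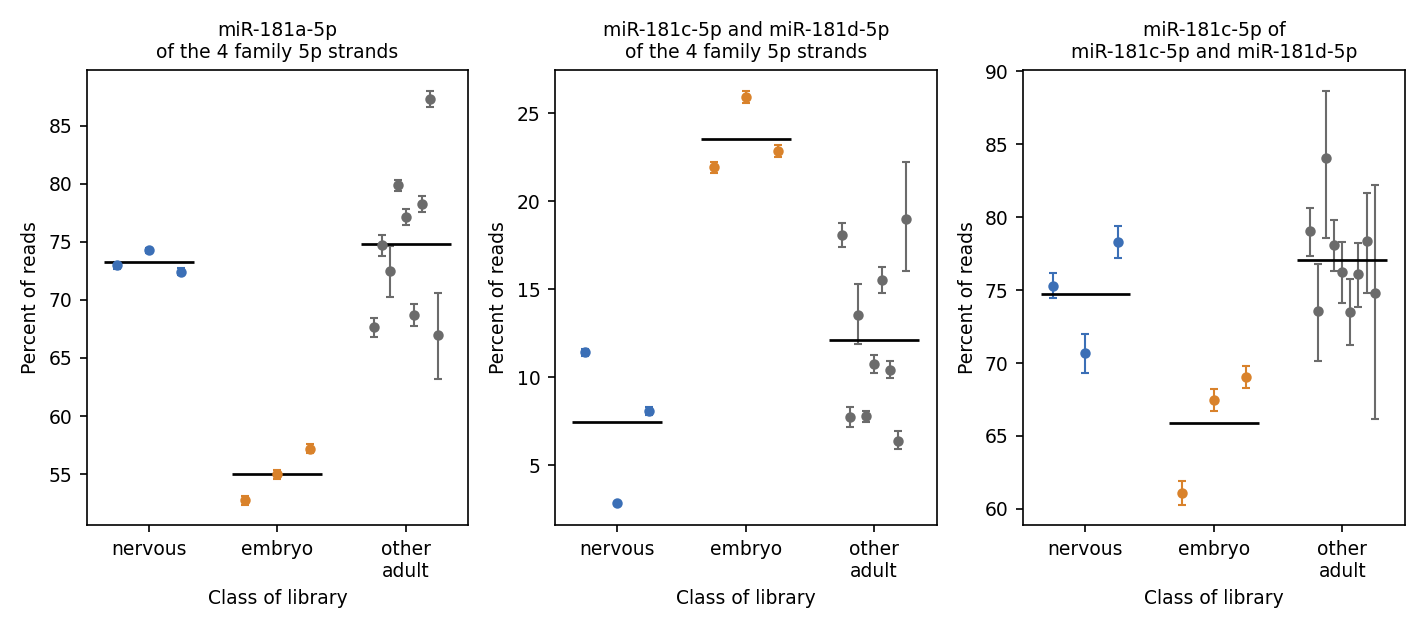
Percent of 5p reads in each library by class, with exact 95% intervals and the class mean as a line: miR-181a-5p of the 4 family strands, miR-181c-5p with miR-181d-5p of the 4 strands, and miR-181c-5p of that pair. The embryo points (52.8 to 57.2% in the left panel, 61.1 to 69.0% in the right) lie below all other adult points in both of these panels; axes do not start at 0.

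Levels in the nervous libraries were compared with the other adult libraries by edgeR's quasi-likelihood test over all 693 names that passed the filter on low counts, among them all 7 members. Of the 7, 4 were higher at an adjusted p under 0.05 and none was lower, beside a background of 28.4% of all names called higher, 12.6% lower and 41% in either direction. The median log2 fold change was 1.96 over the members and -0.21 over all names. miR-181b-5p, miR-181a-1-3p and miR-181a-5p led, and miR-181d-5p passed narrowly.

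miR-181b-5p, a 5p strand of the chromosome 1 and 2 clusters, had 3801 TMM CPM in brain, 16727 in eye and 4872 in spinal cord, against 260 (liver), a median of 1023 and 1734 (lung) in the other adult libraries. All nervous libraries were above all other adult ones, and the log2 fold change was 3.01 ± 0.55 (SE; edgeR adjusted p = 0.000441). miR-181a-5p had 17785 TMM CPM in brain, 54314 in eye and 18121 in spinal cord, against 1350 (liver), a median of 6799 and 11206 (lung). It too had no overlap between the classes, with a log2 fold change of 2.23 ± 0.55 (SE; edgeR adjusted p = 0.00487). Without eye that change was 1.53, with an edgeR adjusted p of 0.0552, so its call rests on eye.

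miR-181a-1-3p, the 3p strand of the chromosome 1 copy, had 202 TMM CPM in brain, 522 in eye and 277 in spinal cord, against 18.0 (stomach), a median of 50.7 and 126 (lung) in the other adult libraries. The classes did not overlap, and the log2 fold change was 2.50 ± 0.52 (SE; edgeR adjusted p = 0.00120). Its counterpart from chromosome 2, miR-181a-2-3p, had 17.1 TMM CPM in brain, 286 in eye and 30.9 in spinal cord, against 7.70 (stomach), a median of 15.9 and 137 (heart). Brain and spinal cord lay within the other adult range, and the log2 fold change of 1.96 ± 0.86 (SE; edgeR adjusted p = 0.0801) did not pass. It was -0.21 without eye, and 2.90 without heart, where it passed (edgeR adjusted p = 0.00272).

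The chromosome 8 strands had smaller log2 fold changes in nervous tissue. miR-181d-5p had 687 TMM CPM in brain, 611 in eye and 439 in spinal cord, against 40.1 (liver), a median of 212 and 426 (heart) in the other adult libraries. The classes did not overlap, but the log2 fold change of 1.39 ± 0.54 (SE; edgeR adjusted p = 0.0498) lost its call in 12 of 15 fits that left out 1 library each. Neither miR-181c-5p (log2 fold change 1.23 ± 0.51, SE; edgeR adjusted p = 0.0652) nor miR-181c-3p (1.01 ± 0.56, SE; edgeR adjusted p = 0.154) passed. For miR-181c-5p, brain alone, at 2096 TMM CPM, was above the highest other adult library, heart at 1604. In the TMM-scaled values 20.5% of all names had every nervous library above every other adult one; among the members these were miR-181a-5p, miR-181b-5p, miR-181d-5p and miR-181a-1-3p.

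The embryos were tested in the same fit against the same 9 other adult libraries. Of the 7 members, 4 were higher and none was lower, beside a background of 27% of all names higher, 17.2% lower and 44.2% in either direction. The median log2 fold change was 1.68 over the members and 0.10 over all names. Those that passed were the 3 members from the chromosome 8 cluster, miR-181d-5p, miR-181c-3p and miR-181c-5p, with miR-181b-5p. The remaining strand of that cluster, miR-181d-3p, which is no member, did not pass (log2 fold change 1.797 ± 0.747, SE; edgeR adjusted p = 0.0627). Since both comparisons share the other adult libraries, their values are only set side by side.

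miR-181d-5p had 1674, 1221 and 846 TMM CPM in the 11-, 15- and 17-day embryos, against 40.1 (liver), a median of 212 and 426 (heart) in the other adult libraries. The lowest embryo was above the highest of these, and the log2 fold change was 2.49 ± 0.52 (SE; edgeR adjusted p = 0.00109). miR-181c-3p had 161, 122 and 90.0 TMM CPM, against 8.77 (testis, 2 reads), a median of 23.9 and 79.8 (heart), with a log2 fold change of 2.02 ± 0.54 (SE; edgeR adjusted p = 0.00647). miR-181c-5p had 2628, 2533 and 1888 TMM CPM, against 212 (liver), a median of 674 and 1604 (heart), with a log2 fold change of 1.68 ± 0.50 (SE; edgeR adjusted p = 0.0120). For these 3 strands the embryo and other adult values did not overlap on either scale. Heart was the highest of the other adult tissues on the TMM scale; in unscaled CPM it was so for miR-181c-5p and miR-181c-3p, while for miR-181d-5p smooth muscle (232) and testis (209) exceeded heart (191).

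miR-181b-5p had 4963, 2764 and 2386 TMM CPM in the 11-, 15- and 17-day embryos, above the 1734 of lung, the highest other adult library, with a log2 fold change of 1.68 ± 0.56 (SE; edgeR adjusted p = 0.0237). Its call was lost without any 1 of the embryos, at a highest edgeR adjusted p of 0.186 and a change of 1.18 without the 11-day embryo. miR-181a-5p had 10346, 7961 and 6838 TMM CPM in the 11-, 15- and 17-day embryos, inside the other adult range of 1350 to 11206, and its log2 fold change of 0.39 ± 0.59 did not pass (SE; edgeR adjusted p = 0.613). Nor did miR-181a-1-3p (0.49 ± 0.56, SE; edgeR adjusted p = 0.492) or miR-181a-2-3p (1.24 ± 0.88, SE; edgeR adjusted p = 0.261). On the TMM scale 25.1% of all names had every embryo above every other adult library, among them miR-181b-5p, miR-181c-5p, miR-181d-5p and miR-181c-3p.

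How the libraries are scaled decides part of these calls. When libraries were scaled to their total counts, the median log2 fold change of all names was 1.38 in embryos and 0.26 in nervous libraries. All 7 of 7 members were called higher in each comparison, beside 287 of 693 names in embryos and 226 of 693 in nervous libraries. miR-181a-5p then had a log2 fold change of 1.87 in embryos (edgeR adjusted p = 0.00671), against that median of 1.38, and miR-181d-5p had 4.01. No member changed direction in either comparison under that scaling. In unscaled CPM all 7 members had every embryo above every other adult library, where 35.2% of all names did so, and 6 of 7, all but miR-181a-2-3p, had every nervous library above them, where 21.9% did. The neuronal marker list was also higher in the embryos than in the other adult libraries, and its part in the embryo values was not tested.

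Nervous libraries and embryos were set against each other in the same fit. None of the 7 members passed, beside a background of 26% of names called in either direction, 14.3% higher and 11.7% lower. By edgeR, miR-181a-1-3p had a log2 fold change of 2.02 ± 0.72 (SE; adjusted p = 0.0514) and miR-181a-5p one of 1.84 ± 0.76 (SE; adjusted p = 0.0827), with unadjusted values of 0.0136 and 0.0285, the only 2 members under 0.05. In both, all 3 nervous libraries were above all 3 embryos on the TMM scale, as in 28% of all names, but in unscaled CPM miR-181a-5p overlapped. DESeq2 called both higher, with adjusted p of 0.0131 and 0.0285, beside 132 of 693 names called higher. For miR-181d-5p (-1.11 ± 0.71, SE; edgeR adjusted p = 0.259) and miR-181c-3p (-1.002 ± 0.724, SE; edgeR adjusted p = 0.317) all 3 nervous libraries were below all 3 embryos, as in 28.7% of all names on the TMM scale and 43.6% in unscaled CPM. With total-count scaling the median over all names was -0.85, both of these were called lower (log2 fold changes of -2.07 and -1.95, edgeR adjusted p = 0.0462 and 0.0362), and the 2 calls of DESeq2 were absent. Under that scaling 115 of 693 names were called lower.

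**Figure D3:**
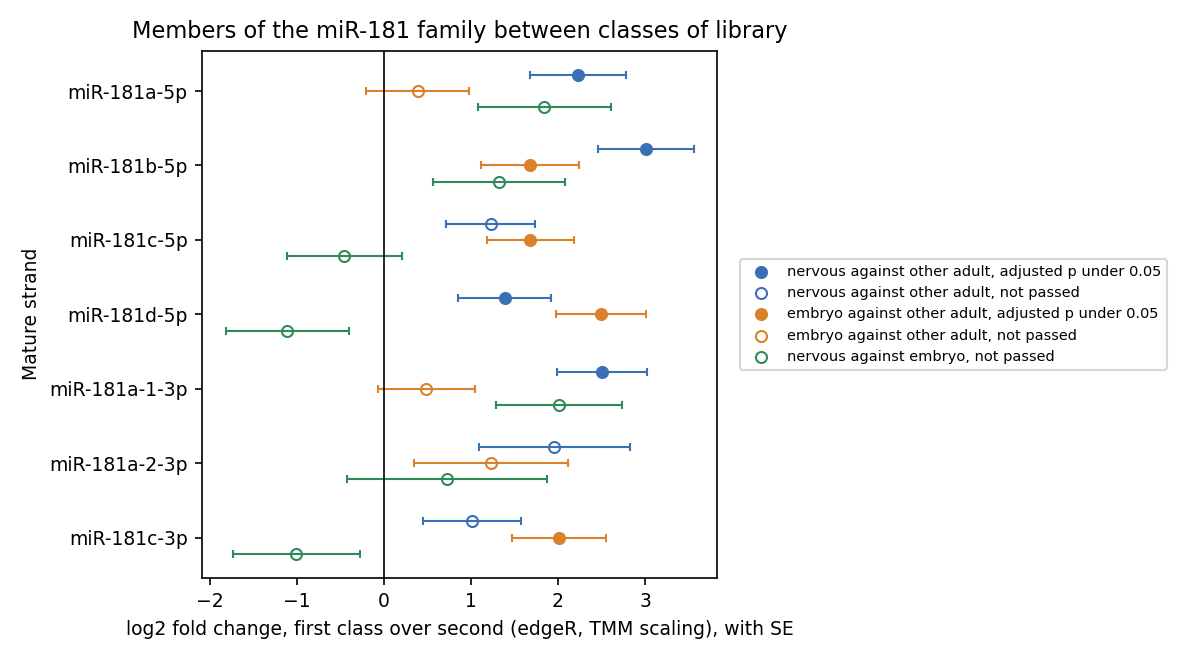
log2 fold change of each member, first class over second, from edgeR with TMM scaling, with SE; filled points have an adjusted p under 0.05. miR-181b-5p (3.01 and 1.68) and miR-181d-5p (1.39 and 2.49) pass in both the nervous and the embryo comparison. miR-181a-5p (2.23) and miR-181a-1-3p (2.50) pass in the nervous comparison only, and miR-181c-5p (1.68) and miR-181c-3p (2.02) in the embryo comparison only. The nervous against embryo points, none of which passed, lie on either side of 0.

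Across the embryo stages, which have 1 library each and therefore no test, all 7 members were highest at 11 days and lowest at 17 days on both scales. The share of all names with this order was not counted, so the order is only a description. The family made up 4.48%, 2.83% and 2.57% of reads at 11, 15 and 17 days. miR-181a-5p had 23204, 15287 and 14474 unscaled CPM, miR-181b-5p had 11131, 5308 and 5051, and miR-181a-2-3p had 274, 84.8 and 75.04. The 11-day value exceeded the 17-day value by 3.66-fold for miR-181a-2-3p, the largest ratio, by 2.20-fold for miR-181b-5p, by 2.10-fold for miR-181d-5p and by 1.46-fold for miR-181a-1-3p, the smallest. In TMM CPM these ratios were 3.45, 2.08, 1.98 and 1.38. Most of the step in miR-181a-2-3p and miR-181b-5p lay between 11 and 15 days, where the unscaled ratios were 3.24 and 2.10, against 1.13 and 1.05 between 15 and 17 days; in TMM CPM they were 2.77 and 1.795, against 1.25 and 1.16. For miR-181c-5p the first and second steps were 1.21 and 1.22 unscaled and 1.04 and 1.34 in TMM CPM. Because the day of the last library is in doubt, the step from 15 to 17 days may not be a step in age.

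**Figure D4:**
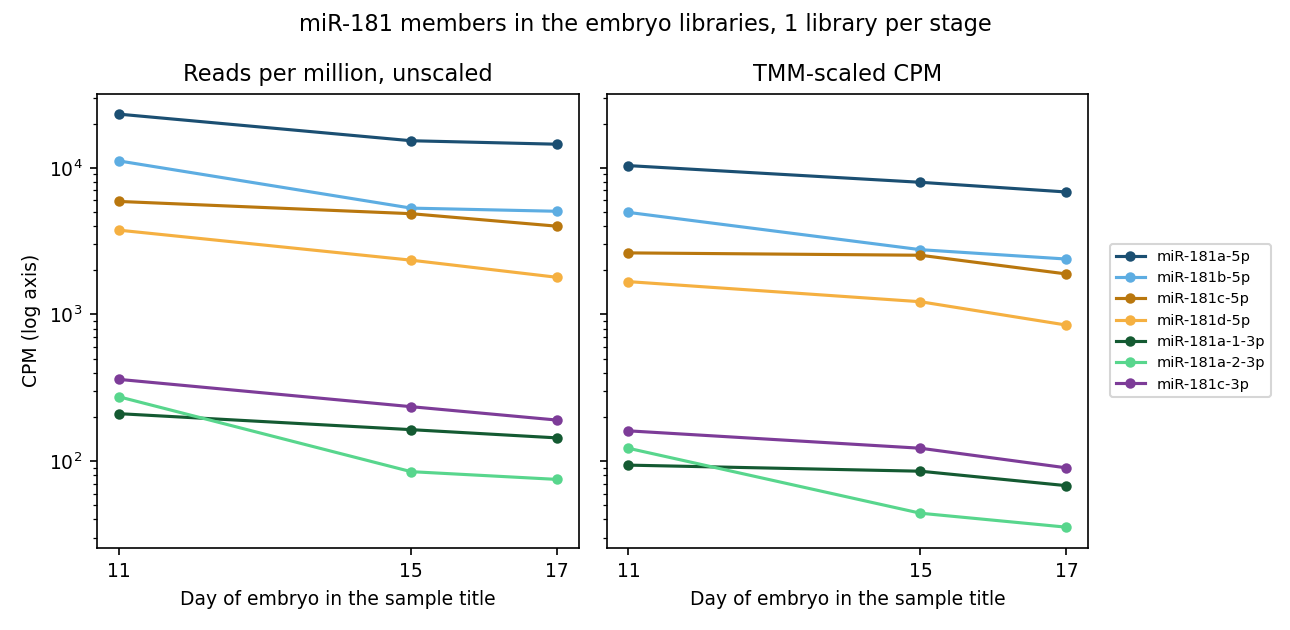
Level of each member in the 3 embryo libraries against the day in the sample title, on log axes, as unscaled CPM (left) and TMM CPM (right). miR-181a-2-3p starts above miR-181a-1-3p at day 11 (274 against 211 unscaled CPM) and ends below it at day 17 (75.04 against 144).

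The locus-numbered 3p strands gave the share of the chromosome 1 strand among the miR-181a 3p reads of each library. Both 3p strands are minor, and whether their ratio follows the output of the copies was not tested. Here the share is miR-181a-1-3p as a percent of miR-181a-1-3p plus miR-181a-2-3p reads, with exact 95% intervals. The strands that set the copies apart are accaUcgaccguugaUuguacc (miR-181a-1-3p) and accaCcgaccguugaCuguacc (miR-181a-2-3p), with the bases that differ in capitals. The chromosome 1 strand had more reads in 13 of 15 libraries. Its interval lay above 50% in 10 libraries and below 50% in 2, the 11-day embryo and heart, and spanned 50% in liver, stomach and testis, which had 31, 20 and 11 reads of the pair.

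Brain had a share of 92.2% (interval 90.1 to 94.0%, 782 reads) and spinal cord 90.0% (87.8 to 91.9%, 868 reads). Eye, in the same class, had 64.6% (62.3 to 66.9%, 1690 reads). Among the embryos the 11-day library had 43.4% (39.8 to 47.1%, 730 reads) and the 15- and 17-day libraries had 65.9% (61.7 to 69.9%) and 65.7% (61.7 to 69.6%). The 2 older embryos overlapped each other and eye, and the 11-day embryo stood below them. In the other adult class heart had 41.03% (35.1 to 47.1%, 273 reads), while lung had 87.6% (83.3 to 91.1%) and salivary gland 85.7% (79.0 to 90.9%). Kidney, spleen and smooth muscle were between, at 72.5%, 75.4% and 75.8%.

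The classes themselves did not separate. The share averaged 82.3 ± 15.3% in nervous libraries (SD, n = 3) and 71.0 ± 14.2% in other adult libraries (SD, n = 9), a difference of 11.3 points (two-sided exact permutation p = 0.282, adjusted over 8 tests 0.412). In embryos it averaged 58.4 ± 12.9% (SD, n = 3), a difference of -12.6 points from the other adult libraries (exact permutation p = 0.218, adjusted 0.412). The spread inside each class, from 64.6 to 92.2% in nervous and from 41.03 to 87.6% in other adult libraries, was as large as the gaps between classes. Over the 14 libraries with at least 20 reads of the pair the range was 51.2 points. Among 12 pairs of locus-numbered strands of other miRNAs and this one, a comparison chosen after the values were seen, it was at rank 3, after miR-125b 3p with 64.7 points and miR-129 3p with 53.3, and the median range was 32.7.

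The chromosome 2 strand, miR-181a-2-3p, was highest in eye, heart and the 11-day embryo on the TMM scale. It had 286 TMM CPM in eye, 137 in heart and 122 in the 11-day embryo, and from 7.70 to 44.1 in the remaining libraries. In unscaled CPM the order was the 11-day embryo (274), eye (236), the 15-day embryo (84.8), the 17-day embryo (75.04) and then heart (61.4). miR-181a-1-3p had 522, 95.1 and 93.9 TMM CPM in the same libraries, and heart was inside the range of the other adult tissues for it. The heart and skeletal muscle marker list was highest in heart (291414 CPM) and next in eye (33726 CPM), but the 11-day embryo, at 2754 CPM, was at rank 10 of 15, and its part in these values was not tested.

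miR-181b gave a second, sparser ratio of 3p strands from the same clusters. Its 3p strand miR-181b-2-3p differs from miR-181b-1-3p by A9U over 21 bases; they had 83 and 294 reads in all, and 7 libraries had at least 20. The chromosome 1 share was 88.5% in brain (23 of 26 reads, interval 69.8 to 97.6%), 63.0% in eye (29 of 46, 47.5 to 76.8%) and 92.2% in spinal cord (47 of 51, 81.1 to 97.8%). These were within 4 points of the miR-181a share in the same libraries, and eye was again the lowest of the nervous class. In the 11-, 15- and 17-day embryos it was 62.8% (49 of 78, 51.1 to 73.5%), 82.1% (55 of 67, 70.8 to 90.4%) and 85.4% (41 of 48, 72.2 to 93.9%). There it exceeded the miR-181a share by 19.4, 16.2 and 19.7 points, with no overlap of the intervals, while the intervals overlapped in the nervous libraries and in lung. For miR-181b the 11-day embryo was again the lowest of the class, though its interval overlapped those of the older embryos. In heart miR-181b had 4 reads of each strand, too few to place it.

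**Figure D5:**
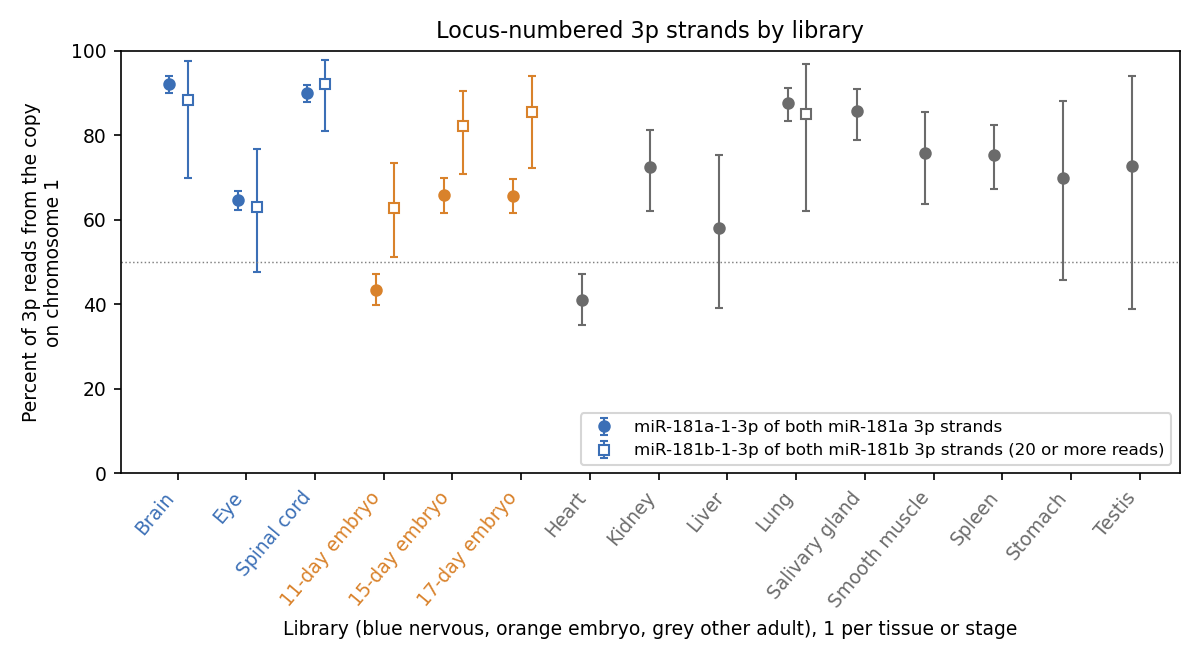
Percent of 3p reads from the chromosome 1 copy in each library, for miR-181a (filled circles) and, where it had at least 20 reads, miR-181b (open squares), with exact 95% intervals; the dotted line marks equal reads. Heart (41.03%) and the 11-day embryo (43.4%) are the 2 libraries whose miR-181a interval lies below 50%.

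Arm choice is the subject of the series, and the 5p strand was the major arm of each hairpin examined in every library. For mir-181c, the 5p strand held from 94.2% (11-day embryo) to 97.9% (testis, 94 reads) of the reads of both arms. The class means were 96.5 ± 0.5% in nervous libraries (SD, n = 3), 95.02 ± 0.69% in embryos (SD, n = 3) and 96.2 ± 0.8% in other adult libraries (SD, n = 9). The embryo difference of -1.14 points did not pass (two-sided exact permutation p = 0.0545, adjusted over 8 tests 0.145), nor did the nervous difference of 0.31 points (exact permutation p = 0.509). For mir-181d, whose 3p strand is no member and had 120 reads in all, the 5p share was 96.9% in testis (31 of 32 reads) and at least 98.8% elsewhere. An edgeR test of the arm ratio over 238 hairpins, with a term for each library, called neither hairpin in either comparison, beside a background of 5.88% of hairpins called in either direction in the nervous and 19.7% in the embryo comparison. The log2 change of the 5p to 3p ratio was 0.17 ± 0.26 for mir-181c and 1.47 ± 0.56 for mir-181d in nervous libraries (SE; edgeR adjusted p = 0.789 and 0.122). In embryos it was -0.35 ± 0.25 and 0.70 ± 0.50 (SE; edgeR adjusted p = 0.347 for both). For mir-181d in nervous libraries the unadjusted edgeR p was 0.0144. The 5p strand of miR-181a held 97.0% (heart) to 99.7% (stomach) of all miR-181a reads. Shares this near to 100% hide relative changes of the minor arm. The 3p strands held from 0.252% (stomach, 20 reads) to 2.97% (heart, 273 reads) of miR-181a reads, and miR-181c-3p from 2.13% (testis, 2 reads) to 5.77% (11-day embryo, 543 reads) of mir-181c reads.

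Across the 15 libraries, on log2 TMM CPM, the members most alike were those of the chromosome 8 cluster. Pearson's r, a description over libraries that share their scaling factors, was 0.97 between miR-181c-5p and miR-181d-5p, 0.97 between miR-181c-5p and miR-181c-3p, and 0.91 between miR-181a-5p and miR-181b-5p. It was 0.68 between miR-181a-5p and miR-181c-5p and 0.64 between miR-181a-1-3p and miR-181a-2-3p, which come from different chromosomes. miR-181b-5p had an r of 0.81 with miR-181c-5p and 0.81 with miR-181d-5p, which come from another cluster. The lowest r between members was 0.53, for miR-181a-5p with miR-181a-2-3p. Among 686 names outside the family, those most like the sum of its 5p strands were miR-218-2-3p, miR-708-5p and miR-708-3p (each r = 0.80), and miR-344-3p and miR-3078-5p (each r = 0.78). Those most like miR-181c-5p were miR-153-3p (r = 0.93), miR-153-5p (r = 0.89) and miR-329-3p (r = 0.88).

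Other miRNA hairpins lie within 50 kb of Mir181c and Mir181d: Mir23a, Mir27a and Mir24-2 on the opposite strand, at gaps of 29556 to 30027 bases, and Mir3074-2 on the same strand, at 29863 and 30037 bases. Gm25110, an annotated miRNA gene at 21838 and 21995 bases on the opposite strand, is paired with no mature name here. Of 7 strands with reads, 4 were called lower in embryos and none higher, beside a background of 17.2% of all names lower and 27% higher. The 4 were miR-23a-3p, miR-24-3p, miR-27a-3p and miR-24-2-5p. miR-24-3p carries no locus number, so its reads cannot be assigned to Mir24-2 alone. In nervous libraries 1 of the 7, miR-27a-3p, was called lower and none higher, beside 12.6% of all names lower and 28.4% higher. The embryo adjusted p of the strands that did not pass ran from 0.0821 to 0.865 by edgeR. miR-27a-3p, which is nearly identical to miR-27b-3p from another locus and so less certain, had 1757 ± 632 TMM CPM in embryos (SD, n = 3), against 12722 ± 8099 in other adult libraries (SD, n = 9), and its log2 fold change was -2.86 ± 0.79 (SE; edgeR adjusted p = 0.00767). miR-24-2-5p, the strand that carries the locus number, had 111 ± 55 TMM CPM in embryos (SD, n = 3) and 746.8 ± 526.1 in other adult libraries (SD, n = 9), and its log2 fold change was -2.75 ± 0.78 (SE; edgeR adjusted p = 0.00878). miR-3074-5p, which Mir3074-1 on another chromosome also encodes, had 85 reads in all and an embryo log2 fold change of 0.16 ± 0.68 (SE; edgeR adjusted p = 0.865). Pearson's r with miR-181c-5p over the 15 libraries ran from -0.45 to 0.17 for the 7 strands.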

How the data were processed

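The deposited files hold raw read counts per mature miRNA name, 1 file per library, made by the authors from MiSeq reads. Per the submitters' processing notes, the tools were bcl2fastq 1.8.4, cutadapt, BWA and bedtools and the build mm10; no source used here states their options or how reads matching several loci were counted. Spike-in RNAs are described in the labels' protocols and were not used here. A name not listed in a library was taken as 0 reads. Unscaled CPM is the read count of a name divided by that of all names in its library, times 1000000. Testis is the shallowest library, and 3 reads are 20.3 CPM there and at most 3.25 CPM elsewhere.

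Counts were tested with edgeR 4.0.16 in R 4.3.3 (TMM, filterByExpr, quasi-likelihood test, 1 fit of all 15 libraries with a term per class, Benjamini-Hochberg adjustment over 693 names, threshold 0.05). The filter removed 13.1% of testis reads and at most 0.215% elsewhere. For arm usage, hairpins needed 20 or more reads in 8 or more libraries. The shares were compared by exact two-sided permutation over libraries (scipy 1.17.1), adjusted over 8 tests. The tests were also run on simulated counts drawn around the average of each name or hairpin over all libraries. Those counts lack the differences among unlike tissues of a class, so they do not bear on the error rate here. Alternatives were DESeq2 1.42.0, limma 3.58.1, total-count scaling, no filter, fits of the compared classes alone, and fits without each library or without testis and smooth muscle together.

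The family, its lists and its tests were chosen with earlier results of these data known. The genes named are all 7 members, the other strands of their hairpins, names with the same seed, names from hairpins within 50 kb, and the names most correlated with the 5p sum (5 names) and with miR-181c-5p (3 names). Classes follow the tissue names in the labels. Mature sequences are from RefSeq (GRCm38.p6) and annotation from GENCODE M21; all 7 members matched by name.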

Additional observations from a re-analysis of the deposited data

Results flagged for a closer look

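Of 19 sets of 9 other adult values examined, 4 held a library whose gap to its nearest neighbour was a large part of the whole range (above 0.493 of it). By chance about 1 in 20 sets of independent, normally distributed values pass that limit. The sets here hold the same reads on both scales and come from unlike tissues, so the 4 cannot be set against that rate. miR-181d-5p was lowest in liver, at 20.2 unscaled CPM (35 reads), against 130 to 232 in the other adult libraries. miR-181a-2-3p was highest in heart on both scales, at 61.4 unscaled CPM (161 reads), against 6.51 to 20.3, and at 137 TMM CPM, against 7.70 to 19.2. The 5p share of mir-181c was highest in testis, at 97.9%, against 95.3 to 96.6%, but it rests on 94 reads and its exact interval of 92.5 to 99.7% covers the whole range of the others. Without heart, miR-181a-2-3p was called higher in nervous libraries (log2 fold change 2.90) and in embryos (2.17).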

How the results depend on the processing

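Of the 7 members, 4 were called in the nervous comparison, against 7 with total-count scaling and 2 to 7 when 1 library was left out (2 without eye, 7 without heart). In embryos 4 were called, against 7 with total-count scaling and 3 to 5 when 1 library was left out. Between nervous libraries and embryos none was called, against 2 by DESeq2, 2 with total-count scaling, 2 when the fit held those classes alone, and 0 to 1 when 1 library was left out (1 without heart, liver, lung or stomach). For arm usage neither hairpin was called with any library left out (0 to 0). Over all names the nervous against embryo comparison called 180 of 693, against 251 by DESeq2 and 158 with total-count scaling. Without the filter it called 119 of 1558, with those classes alone 272 of 647, and with 1 library left out 95 to 200. The nervous comparison called 284 of 693, against 282 with total-count scaling and 186 to 303 with 1 library left out (186 of 745 without brain). In embryos 306 of 693 were called, against 329 with total-count scaling and 255 to 343 with 1 library left out. The arm test called 14 hairpins in the nervous comparison (4 to 28 with 1 library left out) and 47 in embryos (26 to 49, and 18 by limma). Eye exceeded liver 63.6-fold in family reads, 38.8-fold in TMM CPM and 48.3-fold without the top name of each library.

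Leaving out 1 library moved the miR-181a-1-3p share difference between 6.32 and 20.1 points in nervous libraries and -16.4 and -5.15 in embryos. The miR-181a-5p share difference ran from -2.53 to 0.0118 in nervous libraries, where it changed sign without stomach, and from -20.9 to -18.2 in embryos. The miR-181c-5p share of its pair ran from -4.10 to -0.281 and from -12.8 to -8.83, and the mir-181c 5p share from 0.143 to 0.588 and from -1.36 to -0.749. Log2 fold changes that reversed, none of them called where they did so, were those of miR-181a-2-3p in nervous libraries (-0.205 without eye, up to 2.90 without heart) and against embryos (-0.55 with total counts, -1.48 without eye to 1.53 without the 11-day embryo), and of strands that are no members. These were miR-181d-3p in nervous libraries (-0.25; 0.53 with total counts, 0.0815 without testis and smooth muscle, and -0.68 to 0.19 with 1 library left out), and, against embryos, miR-181b-1-3p (0.07; -0.84 with total counts, and -0.11 to 0.48 with 1 library left out) and miR-181b-2-3p (-0.32; -1.85 to 0.74 with 1 library left out). The causes were not tested.

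miR-181d-5p in nervous libraries also lost its call without the filter and with those classes alone, and DESeq2 also called miR-181c-5p there. No paired analysis was possible because no tissue has a second library and nothing in the labels pairs the libraries. Depth limits the 3p strands most: in testis miR-181a-2-3p rests on 3 reads and miR-181c-3p on 2.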

Other observations

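The remaining strands of the family's hairpins are rare. miR-181b-1-3p, the locus-numbered strand from chromosome 1, averaged 12.3 ± 5.3 TMM CPM in nervous libraries (SD, n = 3), 11.8 ± 3.8 in embryos (SD, n = 3) and 3.92 ± 2.38 in other adult libraries (SD, n = 9). It was called higher in nervous libraries (log2 fold change 1.60 ± 0.61, SE; edgeR adjusted p = 0.0466), a call lost in 12 of 15 fits that left out 1 library, and its embryo value of 1.53 ± 0.61 did not pass (SE; edgeR adjusted p = 0.0511). miR-181d-3p had 43, 19 and 22 reads in the 11-, 15- and 17-day embryos and at most 7 reads in any other library; its embryo log2 fold change of 1.797 ± 0.747 did not pass (SE; edgeR adjusted p = 0.0627). miR-181b-2-3p had 29 reads in the 11-day embryo, 17 in eye and at most 12 in any other library.

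Of the names whose pattern was most like the family's 5p sum, miR-344-3p had 376 ± 241 TMM CPM in nervous libraries (SD, n = 3), 151 ± 10 in embryos (SD, n = 3) and 7.24 ± 6.77 in other adult libraries (SD, n = 9). miR-708-5p had 855.7 ± 181.2, 402 ± 107 and 105 ± 72 TMM CPM in the same classes (SD, n = 3, 3 and 9). They were chosen for this pattern, so these levels are a description.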
